A study of Homo sapiens with 18 samples.

Results

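The epidermal growth factor (EGF) receptor family and its ligands were followed through 9 genes, taken by symbol from each count table. HBEGF, AREG, EREG, TGFA and NRG1 encode ligands, EGFR, ERBB2 and ERBB3 encode receptors, and ERRFI1 encodes a cytoplasmic inhibitor of the receptors. All 9 were found, among 58336 genes. The RNA came from TC-32, TC-71 and A673, established lines of Ewing sarcoma, a bone and soft-tissue cancer typically driven by a fusion of EWSR1 to the transcription factor gene FLI1. In each line, 3 libraries came from cells transfected with siFLI1, an siRNA against FLI1, and 3 from cells given siNeg, a negative control siRNA, both at 20 nM. The library names of TC-32 and TC-71 give 48 h, and those of A673 give no time. A673 was grown in DMEM and the other lines in RPMI medium, so line and medium cannot be told apart there. Each line is a single cell line with 1 siRNA against FLI1, and nothing says that the replicates were separate cultures, so the p-values measure the spread between these libraries, which may be technical.

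EGF family ligands are made as membrane-anchored precursors that proteases cut free at the cell surface. The released ligands bind EGFR, ERBB3 or ERBB4 and make the receptors pair. Paired receptors phosphorylate each other and signal to the RAS-ERK and PI3K pathways. ERBB2 binds no known ligand and serves as a partner, ERBB3 has a nearly inactive kinase, and ERRFI1 binds the active kinase of EGFR and shuts it down. The family is best known from epithelia and carcinomas. The EWSR1::FLI1 fusion protein binds DNA at the core GGAA, and at repeats of it, through the DNA-binding domain of FLI1.

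The libraries of TC-32 and TC-71 held 19685354 to 37234528 counts each and those of A673 114564479 to 120993595. The targeted gene, FLI1, was lower in siFLI1 in every line, with log2 changes of -2.08 in A673, -1.47 in TC-71 and -1.03 in TC-32, and its reads do not separate the fusion from the unfused transcript. All tested genes of 5 Ewing sarcoma markers (FLI1, CD99, NKX2-2, NR0B1 and STEAP1) were lower as well, in each line. CD99 was at 0 counts in all 6 TC-71 libraries and was not tested there, although it is a defining marker of the tumour. CD99 lies in a pseudoautosomal region, with copies on X and Y, and how the counting treated them is not given in the sources used here.

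Of the 9 genes, 6 passed the filter on low counts in TC-32, 6 in TC-71 and all 9 in A673. In TC-32, 4 rose after siFLI1 (HBEGF, EGFR, ERBB2 and ERRFI1) and 2 fell (NRG1 and ERBB3), by edgeR's quasi-likelihood test at a Benjamini-Hochberg adjusted p under 0.05. Among all 16208 genes tested there, 41.3% were called higher and 40.1% lower. In TC-71, 4 rose (HBEGF, NRG1, ERBB2 and ERRFI1) and 2 fell (TGFA and ERBB3), where 36.8% of 17085 tested genes were higher and 35.0% lower. In A673, 7 rose, TGFA fell, and ERBB3 did not pass the threshold, where 36.0% of 18427 tested genes were higher and 35.0% lower. Genes called in these lines were therefore common, and the sizes of the changes carry more than the number of calls. The median log2 fold change over the members tested was 3.64 in A673, 1.00 in TC-32 and 0.79 in TC-71, against -0.00056, 0.022 and 0.018 over all genes tested. Members that passed the filter only through their higher group had to differ. These were ERBB3 in TC-32 and AREG, EREG and TGFA in A673. Their calls and the medians describe and do not test. The A673 median is the value of AREG, a gene at 0.150 CPM after siFLI1. AREG and EREG were tested in A673 alone, so the medians cover different genes and do not rank the lines. With library size as the only scaling, the median over all A673 genes was -0.109, and 40.9% of the A673 calls were higher, against 50.7% with TMM scaling. Bulk RNA does not tell a change in the number of cells of a kind from a change in RNA per cell.

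**Figure D1:**
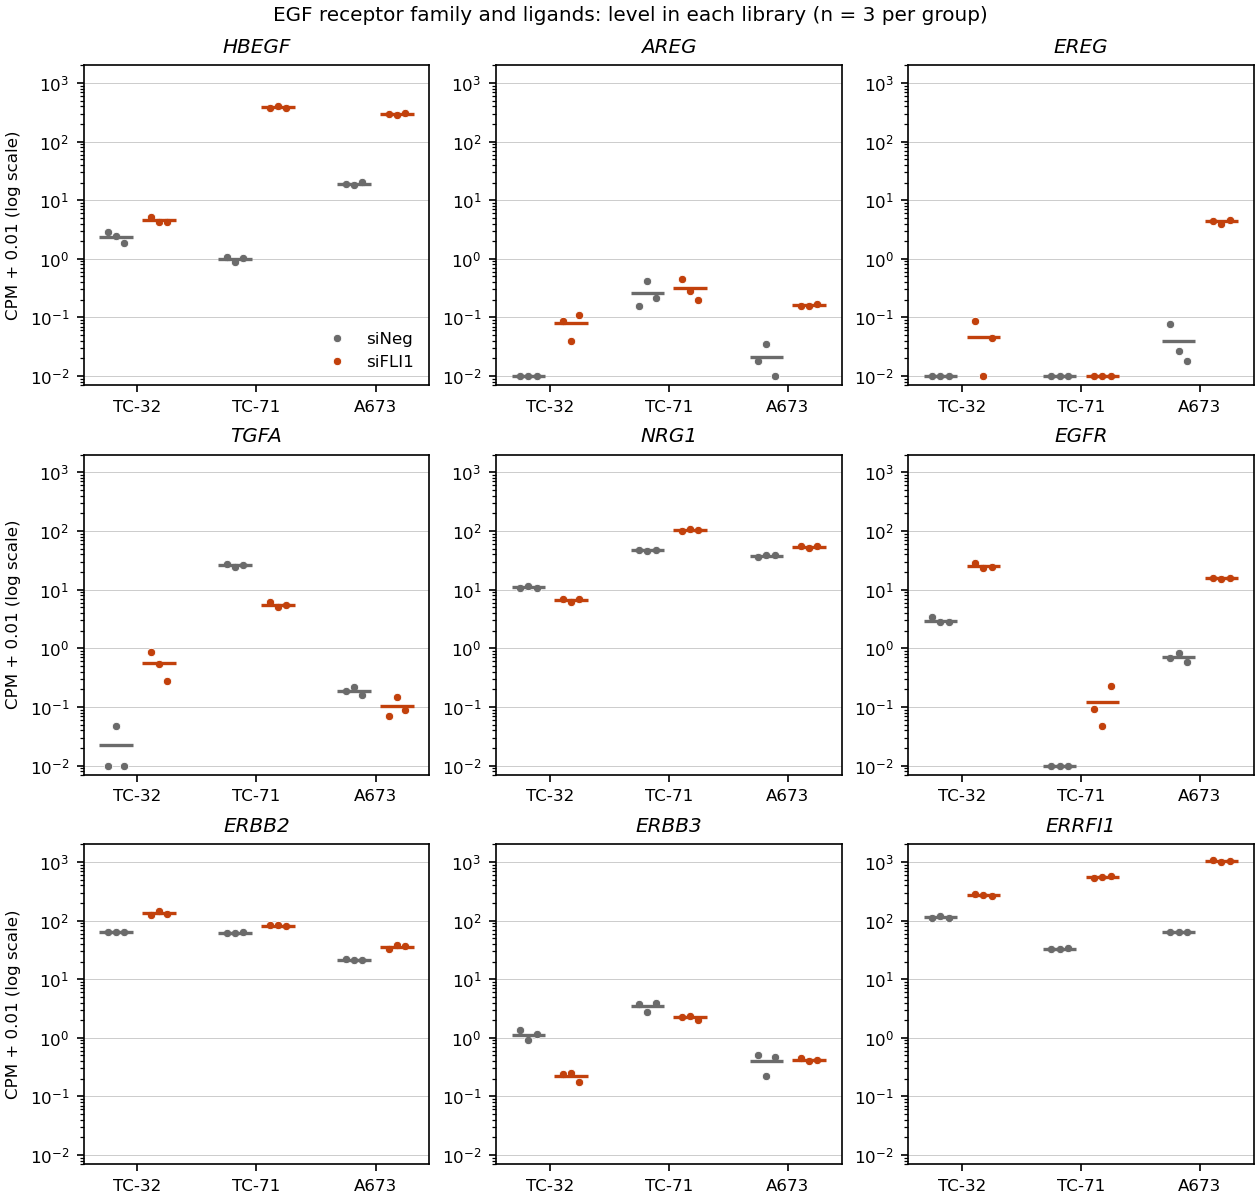
Level of each of the 9 genes in every library, as TMM-scaled CPM (counts scaled to the library total) plus 0.01 on a log axis. Points are the 3 libraries of a group and bars are their means, siNeg in grey and siFLI1 in orange. HBEGF and ERRFI1 are higher in siFLI1 in all 3 lines, NRG1 is lower in TC-32 and higher in the other lines, and EREG reaches 4.32 CPM in A673 alone.

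HBEGF encodes heparin-binding EGF-like growth factor, a ligand of EGFR and ERBB4. It lies on chromosome 5 from 140332843 to 140346603 (GRCh38, minus strand) and shares no exon bases with another annotated gene. It was among the strongest risers of the table in TC-71, ranking 23 by rise over all genes tested. Its RefSeq promoter (GRCh38.p14, chr5:140346554-140346853, minus strand, from 250 bases before to 50 bases after the start site) is shown because the gene rose in every line. Capitals mark GGAA or its reverse complement TTCC.
HBEGF: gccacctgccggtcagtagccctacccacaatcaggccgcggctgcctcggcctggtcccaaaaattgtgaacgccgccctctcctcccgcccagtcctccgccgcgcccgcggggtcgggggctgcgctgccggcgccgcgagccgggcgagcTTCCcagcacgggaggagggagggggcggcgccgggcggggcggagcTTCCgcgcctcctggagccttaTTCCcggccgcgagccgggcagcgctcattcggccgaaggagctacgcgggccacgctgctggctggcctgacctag
The 3 matches are all TTCC in the direction of the gene, and 66% of 35116 RefSeq promoters of this length hold as many matches on both strands together. A match is a description of the letters and shows neither binding nor its absence.

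In TC-71, HBEGF stood at 1.08, 0.862 and 1.01 CPM in the siNeg libraries and at 368, 397 and 378 CPM after siFLI1. These are 29, 17 and 29 counts against 8988, 10381 and 14019, and the groups lie far apart. The rise was 388-fold in mean CPM, with a log2 fold change of 8.58 (edgeR adjusted p = 1.56e-34, SE 0.081), larger in size than that of 99.9% of genes tested in TC-71. The A673 libraries started higher, at 18.8, 18.3 and 20.3 CPM, and reached 294, 287 and 306 CPM. That was a 15.5-fold rise with a log2 fold change of 3.95 (edgeR adjusted p = 4.98e-17, SE 0.048), and 96.9% of the genes tested in A673 moved less. In TC-32 the values were 2.81, 2.41 and 1.85 CPM in siNeg and 5.13, 4.16 and 4.2 CPM in siFLI1. The groups did not overlap, and the log2 fold change was 0.92 (edgeR adjusted p = 2.7e-05, SE 0.171), a size exceeded by many genes, since 59.2% moved less. Ordered by level, the groups ran from TC-71 siNeg through TC-32 siNeg, TC-32 siFLI1, A673 siNeg and A673 siFLI1 to TC-71 siFLI1, with no overlap between neighbours. TC-71 thus held the lowest and the highest HBEGF level of the 6 groups. The tables were counted separately, TC-71 with another counter, and this limits every level set across lines.

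AREG and EREG encode amphiregulin and epiregulin, EGFR ligands whose genes are neighbours on chromosome 4. EREG spans 74365145 to 74388749 and AREG 74445136 to 74455005, 56.39 kb apart, and the ligand genes EPGN and BTC flank them at 48.35 kb and 289.8 kb. EREG RNA went from a few counts to far more in 1 line alone, so its promoter (chr4:74364895-74365194, plus strand) is shown with the same marking.
EREG: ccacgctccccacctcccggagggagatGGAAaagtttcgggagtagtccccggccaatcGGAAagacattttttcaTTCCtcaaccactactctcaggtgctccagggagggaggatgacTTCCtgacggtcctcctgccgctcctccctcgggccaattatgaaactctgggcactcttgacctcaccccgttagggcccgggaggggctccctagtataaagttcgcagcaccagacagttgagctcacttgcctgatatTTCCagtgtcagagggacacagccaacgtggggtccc
It holds 5 matches, as many as or more than which are found in 28.6% of promoters. One of them is part of GGAATG, the motif of TEAD factors, which was found in 14% of promoters and overlaps GGAA. The AREG promoter holds 3 matches of GGAA and none of GGAATG.

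EREG had 8, 2 and 1 counts in the A673 siNeg libraries and 517, 457 and 523 after siFLI1, or 4.42, 3.95 and 4.59 CPM. Its log2 fold change there was 7.10 (edgeR adjusted p = 3.05e-12, SE 0.249), rank 66 by rise. Without siNeg replicate 1, which holds 8 of the 11 siNeg counts, the value was 8.32. In TC-32, EREG had 0 counts in siNeg and 2, 0 and 1 in siFLI1, and in TC-71 it was at 0 in all 6 libraries. A count of 0 allows up to 3 counts, which is at most 0.152 CPM in any TC-71 library and at most 0.126 CPM in any TC-32 library. The 4.32 ± 0.335 CPM of A673 siFLI1 (SD, n = 3) lies above these limits, so a level like that would have been seen in the other lines. AREG stayed low everywhere. It had 1, 3 and 0 counts in A673 siNeg and 17, 17 and 18 in siFLI1; its log2 change was 3.64 (edgeR adjusted p = 7.75e-05, SE 0.619) that became 4.85 without siNeg replicate 2. Even after this rise its mean was 0.150 CPM. TC-71 held 4, 8 and 6 AREG counts in siNeg and 11, 7 and 7 in siFLI1, overlapping and too low to be tested, and TC-32 held 0 in siNeg and 2, 1 and 3 in siFLI1.

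The flanking ligand genes were read beside them. EPGN (epigen) had 0, 2 and 0 counts in A673 siNeg and 61, 63 and 64 in siFLI1, a CPM ratio of 98.0 with an exact 95% counting interval of 26.8 to 815. BTC (betacellulin) rose in A673 with a log2 fold change of 2.92, from 3, 7 and 0 counts to 29, 17 and 29, and of 4.0 without siNeg replicate 2. All 4 ligand genes of the cluster had under 10 counts in each A673 siNeg library and more in each siFLI1 library. They passed the low-count filter only through siFLI1, so that they had to differ, and their A673 values are a description. In TC-71, EPGN had 5, 1 and 2 counts in siNeg and 8, 6 and 21 in siFLI1, and BTC had 3, 0 and 2 against 12, 8 and 9. Neither was tested in TC-71 or TC-32.

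TGFA encodes transforming growth factor alpha, an EGFR ligand, on chromosome 2 (70447284 to 70554193). It took a different direction from HBEGF in TC-71. There it fell from 27.2, 24.7 and 26.6 CPM to 6.10, 5.05 and 5.52 CPM, leaving 21.2% of the siNeg mean, with a log2 fold change of -2.24 (edgeR adjusted p = 2.48e-19, SE 0.090). No siFLI1 library came near the siNeg range. In A673, TGFA was low in both groups, with 21, 25 and 18 counts in siNeg and 7, 16 and 9 in siFLI1. TGFA passed the low-count filter there only through siNeg, so its A673 value is a description. The log2 fold change was -0.93 (edgeR adjusted p = 0.0373, SE 0.375), and this call depends on the settings. It was lost with DESeq2 (adjusted p = 0.11), with no filter on low counts (0.0512), without siFLI1 replicate 1 (-0.70) or 3 (-0.83), and without siNeg replicate 1 (-0.94) or 2 (-0.82). TC-32 held 0, 1 and 0 counts in siNeg and 22, 18 and 8 in siFLI1, too few for the filter. The CPM ratio from summed counts was 39.9, with an exact 95% interval of 6.82 to 1607 that covers counting error only. The siFLI1 libraries of TC-32 were thus higher and those of TC-71 lower than their controls, and their levels still differed widely, at 0.549 and 5.56 CPM.

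NRG1 encodes neuregulin 1, the ligand of ERBB3 and ERBB4, from several promoters over a long locus on chromosome 8 (31639222 to 32855666). Its direction depended on the line. In TC-32, it fell from 10.8, 11.8 and 10.7 CPM to 6.97, 6.12 and 7.04 CPM; its log2 change was -0.73 (edgeR adjusted p = 3.89e-07, SE 0.100). In TC-71, it rose from 46.8, 46.2 and 47.8 CPM to 101, 110 and 105 CPM; its log2 change was 1.16 (edgeR adjusted p = 2.22e-18, SE 0.051). In A673, it rose from 36.3, 38.4 and 38.5 CPM to 55.6, 51.5 and 55.3 CPM; its log2 change was 0.52 (edgeR adjusted p = 9.03e-08, SE 0.045). The groups did not overlap in any line. Ordered by level, TC-32 siFLI1 was lowest, followed by TC-32 siNeg, A673 siNeg, TC-71 siNeg, A673 siFLI1 and TC-71 siFLI1, again without overlap. Gene-level counts do not tell which NRG1 isoform a read came from.

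EGFR, the receptor that HBEGF, AREG, EREG and TGFA bind, rose steeply where it was measured above a few counts. It lies on chromosome 7 (55019017 to 55211628, plus strand) and shares 1.17% of its exon bases with EGFR-AS1 on the opposite strand. The libraries were made with a stranded kit, but whether strand was used in counting is not given in the sources used here. In TC-32 its level went from 3.35, 2.75 and 2.78 CPM to 28.1, 23.5 and 24 CPM. The log2 fold change was 3.09 (edgeR adjusted p = 2.19e-18, SE 0.110), and 92.9% of genes tested moved less. In A673 it went from 0.680, 0.819 and 0.581 CPM to 16.1, 15 and 15.5 CPM; its log2 change was 4.48 (edgeR adjusted p = 1.29e-14, SE 0.096). That is 22.4-fold in mean CPM. TC-71 was the exception, with 0 EGFR counts in siNeg and 2, 1 and 8 in siFLI1. A count of 0 allows 3 counts there, between 0.104 and 0.152 CPM in the siNeg libraries, so EGFR RNA above that was not detected in TC-71 siNeg cells. The line with the largest HBEGF rise was therefore the line with the least EGFR RNA.

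The promoter of the first EGFR start site (chr7:55018767-55019066, plus strand) is shown for comparison with those of the ligands.
EGFR: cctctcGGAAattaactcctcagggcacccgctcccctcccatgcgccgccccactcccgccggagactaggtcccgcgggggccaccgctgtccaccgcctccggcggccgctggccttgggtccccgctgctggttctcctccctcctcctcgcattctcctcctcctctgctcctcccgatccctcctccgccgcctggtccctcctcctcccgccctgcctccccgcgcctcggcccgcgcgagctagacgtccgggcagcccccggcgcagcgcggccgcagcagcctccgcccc
It holds 1 match of GGAA, as 95.5% of promoters do or exceed, and none of TGANTCA, the motif of AP-1 factors. A second RefSeq start site further into the locus holds 5 GGAA matches and 2 of TGANTCA, a motif found in 7.71% of promoters. The counts do not separate the start sites.

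ERBB2 rose in every line, and by less than ERRFI1 in each. Its log2 fold change was 1.07 in TC-32 (edgeR adjusted p = 1.38e-15, SE 0.052), from 63.3, 63.4 and 63.4 CPM to 126, 143 and 130 CPM. In TC-71 it was 0.41 (edgeR adjusted p = 2.87e-08, SE 0.051), from 60.8, 60.5 and 64.1 CPM to 83.2, 83.8 and 79.5 CPM. In A673 it was 0.74 (edgeR adjusted p = 3.82e-08, SE 0.059), from 22, 21.5 and 20.8 CPM to 32.4, 38.7 and 36.6 CPM. The siFLI1 libraries lay above the siNeg libraries of their line throughout. The siNeg levels of TC-32 and TC-71 overlapped, and both exceeded the A673 levels. ERBB2 shares 6.93% of its exon bases with MIEN1 and PGAP3 on the opposite strand.

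ERBB3 did not follow ERBB2. In TC-32 it fell from 32, 24 and 27 counts to 6, 8 and 5, or from 1.13 ± 0.218 to 0.212 ± 0.037 CPM (SD, n = 3 per group). Its log2 change was -2.38 (edgeR adjusted p = 1.99e-06, SE 0.367). ERBB3 passed the low-count filter there only through siNeg, so its TC-32 value is a description. In TC-71 it fell from 102, 55 and 113 counts to 55, 62 and 75, which is from 3.50 ± 0.619 to 2.21 ± 0.178 CPM; its log2 change was -0.69 (edgeR adjusted p = 0.000589, SE 0.169). The raw counts overlap because the libraries differ in depth, while the CPM do not. In A673 the libraries overlapped, at 0.506, 0.213 and 0.454 CPM in siNeg and 0.436, 0.388 and 0.404 CPM in siFLI1. The A673 log2 fold change of 0.068 (SE 0.279) did not pass the threshold (edgeR adjusted p = 0.839), its sign turned with library size as the only scaling (-0.040), and A673 siNeg replicate 2 alone was low. The highest ERBB3 level of the series, in TC-71 siNeg, stayed under 4 CPM.

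EGFR and ERBB receptors are usual in epithelial cells, so 7 epithelial markers (EPCAM, CDH1, KRT5, KRT14, KRT19, ESRP1 and GRHL2) were read beside them. In TC-32 their summed level went from between 2.31 and 2.83 CPM to between 5.44 and 7.21 CPM. That rise lay in CDH1, which went from a mean of 0.162 to 4.44 CPM. KRT5 went from 1.73 to 0.885 CPM, and the other markers had means under 1 CPM in both groups. Of the 2 tested there, CDH1 was higher (log2 fold change 4.74) and KRT5 lower (-0.97). CDH1 passed the low-count filter only through siFLI1, so its value is a description. In TC-71 the sum went from between 4.55 and 5.42 CPM to between 1.43 and 2.64 CPM, where ESRP1 was lower (-2.04) and EPCAM did not pass the threshold. In A673 it stayed under 1 CPM, from between 0.156 and 0.379 to between 0.402 and 0.536 CPM, with KRT5 going from 0 counts to 16, 21 and 13 and GRHL2 at 0 in all 6 libraries. The part of these markers in the EGFR and ERBB results was not tested.

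ERRFI1 encodes MIG6, the feedback inhibitor that binds the kinase domain of EGFR and ERBB2, and had the highest CPM of the 9 genes after siFLI1 in every line. It lies on chromosome 1 (8004404 to 8026309, minus strand) and shares 3.71% of its exon bases with an antisense gene. In A673 it rose from 63.4, 63.3 and 62.6 CPM to 1065, 990 and 1023 CPM; its log2 change was 4.02 (edgeR adjusted p = 6.61e-18, SE 0.039). In TC-71 it rose from 32.9, 32.9 and 33.6 CPM to 538, 557 and 568 CPM; its log2 change was 4.06 (edgeR adjusted p = 3.52e-32, SE 0.048). These are 16.3-fold and 16.7-fold in mean CPM. In TC-32 it rose from 110, 118 and 111 CPM to 288, 267 and 264 CPM; its log2 change was 1.27 (edgeR adjusted p = 4.45e-18, SE 0.047). TC-32 had the highest siNeg level and the lowest siFLI1 level of the lines, while TC-71 stayed below A673 in both groups, and no neighbouring groups overlapped. The promoter (chr1:8026260-8026559, minus strand) is shown because ERRFI1 rose with HBEGF in every line and, unlike it, holds no GGAA on either strand.
ERRFI1: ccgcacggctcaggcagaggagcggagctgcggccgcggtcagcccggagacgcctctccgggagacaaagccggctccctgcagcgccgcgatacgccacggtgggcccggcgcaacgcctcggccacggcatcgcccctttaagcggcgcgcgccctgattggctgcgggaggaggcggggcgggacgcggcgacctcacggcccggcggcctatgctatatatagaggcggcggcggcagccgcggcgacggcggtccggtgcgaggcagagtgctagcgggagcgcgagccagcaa
No base is in capitals, since GGAA, which 95.5% of promoters hold, is not among these letters, nor are TGANTCA and GGAATG. Nothing follows from this about binding elsewhere in the locus.

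**Figure D2:**
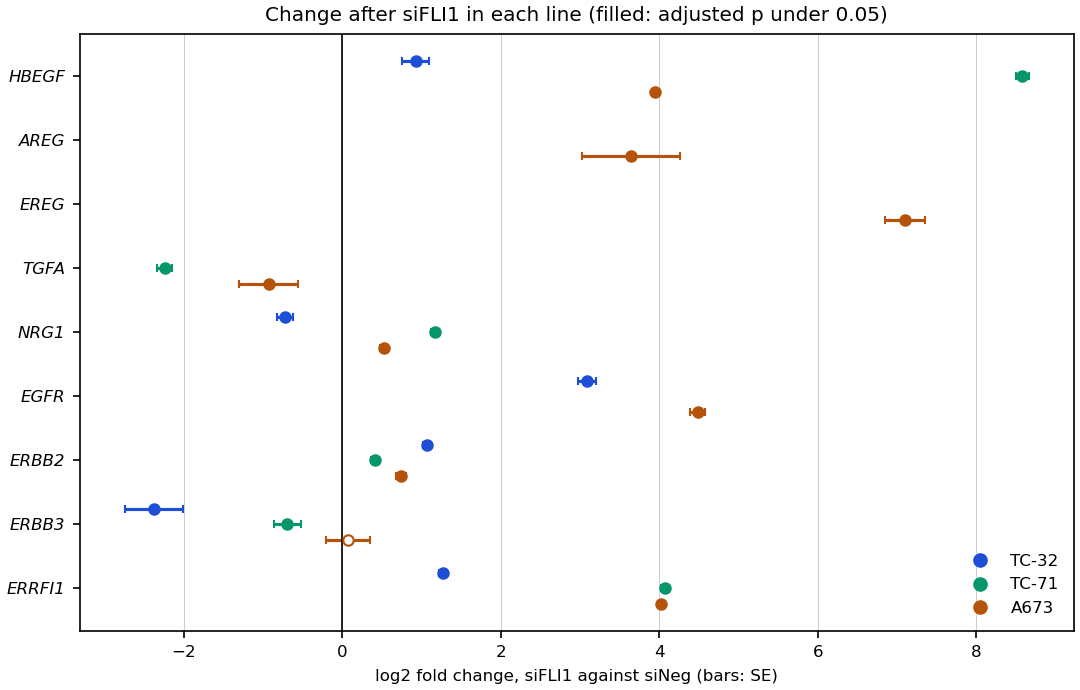
Log2 fold change of siFLI1 against siNeg for each gene and line, with bars for SE. Filled points passed an adjusted p under 0.05, the open point did not, and genes that did not pass the low-count filter in a line have no point there. HBEGF spans 0.92 to 8.58 over the lines, ERRFI1 sits at 4.06 in TC-71 and 4.02 in A673, and NRG1 falls on both sides of 0.

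The lines were set against each other with interaction contrasts, all 18 libraries in a single model. Between TC-32 and A673 the effect differed for 7 of the 8 members in the model, where 62.1% of 19591 genes differed. Between TC-32 and TC-71 it differed for 6 of 8, where 53.6% of genes differed, and between A673 and TC-71 for 4 of 8 (HBEGF, TGFA, NRG1 and ERBB2), where 51.7% differed. AREG was not in the model. The 8 include EREG, which gave no usable contrast because 1 group or more held no counts, and EGFR, which gave none with TC-71. In those pairs they are not members found to be alike. The differing members in both pairs with TC-32 include TGFA. Its TC-32 siNeg group held 1 count in all, so the sizes of these TGFA differences depend on the prior count. The HBEGF effect was larger in TC-71 than in A673, and A673 minus TC-71 was -4.67 (edgeR adjusted p = 3.02e-25, SE 0.128). TC-32 minus A673 was -3.00 (edgeR adjusted p = 1.66e-17, SE 0.164). All 3 pairs of lines thus differed in the size of the HBEGF rise. For ERRFI1, both contrasts with TC-32 passed the threshold, at -2.72 against A673 and -2.80 against TC-71. Its A673 minus TC-71 difference of -0.080 (edgeR adjusted p = 0.303, SE 0.062) did not, and ranged from -0.14 to -0.0067 over the alternatives. NRG1 is the only member with opposite calls, lower in TC-32 and higher in the others, with differences of -1.22 against A673 (edgeR adjusted p = 3.94e-13) and -1.90 against TC-71 (1.1e-17). The EGFR rise was smaller in TC-32, with a TC-32 minus A673 difference of -1.36 (edgeR adjusted p = 9.86e-08, SE 0.184), while its contrasts with TC-71 cannot be used since TC-71 siNeg held 0 counts. ERBB3 differed in both TC-32 contrasts, but its A673 minus TC-71 difference of 0.71 missed the threshold (edgeR adjusted p = 0.0629), with adjusted p from 0.0215 to 0.273 over the alternatives. The TGFA difference between A673 and TC-71 (1.28, edgeR adjusted p = 0.00622) was lost without A673 siFLI1 replicate 2 (0.87, adjusted p = 0.143).

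To compare genes with each other, CPM were divided by the length of the MANE Select transcript in kb. The sum over EGFR, ERBB2, ERBB3 and ERBB4 went from 6.14 ± 0.111 to 10.4 ± 0.612 CPM per kb in A673 (SD, n = 3 per group), from 15.3 ± 0.122 to 32.2 ± 1.77 in TC-32, and in TC-71 from 15.1 ± 0.513 to 20.6 ± 0.464. ERBB2 made up most of it in every group, from 75.9% in A673 siFLI1 to 90.9% in TC-32 siNeg. The share of EGFR went from 1.95% ± 0.207 to 7.94% ± 1.13 in TC-32 and from 1.14% ± 0.187 to 15.2% ± 1.46 in A673, while in TC-71 it was 0.056% ± 0.047 after siFLI1. The share of ERBB4, the remaining receptor, went in A673 from 21.1% ± 0.986 to 8.17% ± 0.847 and in TC-32 from 5.79% ± 0.430 to 1.26% ± 0.112, and in TC-71 from 5.94% ± 0.414 to 10.5% ± 0.835. With all annotated exons as the length, a choice compared after the data were seen, the ERBB2 share was 61.9% in A673 siNeg, against 76.6%, and remained the largest of the receptors in each group. With that length the ERBB4 share went from 35.8% to 14.9% in A673, from 11.4% to 2.53% in TC-32 and from 11.7% to 19.7% in TC-71, higher values in the same directions.

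The ligand sum rose by a larger factor than the receptor sum in TC-71 and A673. In TC-32 it rose by a smaller factor. Summed over the 5 ligand members and EGF, BTC, EPGN, NRG2, NRG3 and NRG4, the level in TC-71 went from 15.3 ± 0.336 to 176 ± 6.33 CPM per kb, that in A673 from 15.9 ± 0.514 to 136 ± 4.43, and that in TC-32 from 2.99 ± 0.256 to 4.04 ± 0.276. HBEGF made up 2.72% ± 0.255 of the TC-71 siNeg sum and 91.7% ± 0.325 of the siFLI1 sum. In A673 its share went from 51% ± 1.63 to 92.4% ± 0.219, and in TC-32 from 33.1% ± 4.04 to 47.1% ± 2.49. TGFA, the leading ligand of TC-71 siNeg at 41.5% ± 1.24, made up 0.769% ± 0.099 after siFLI1. NRG1 held 25.6% ± 0.281 of the TC-71 siNeg sum and 4.99% ± 0.026 after siFLI1 although its own level rose. Shares of RNA per length are not amounts of protein.

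**Figure D3:**
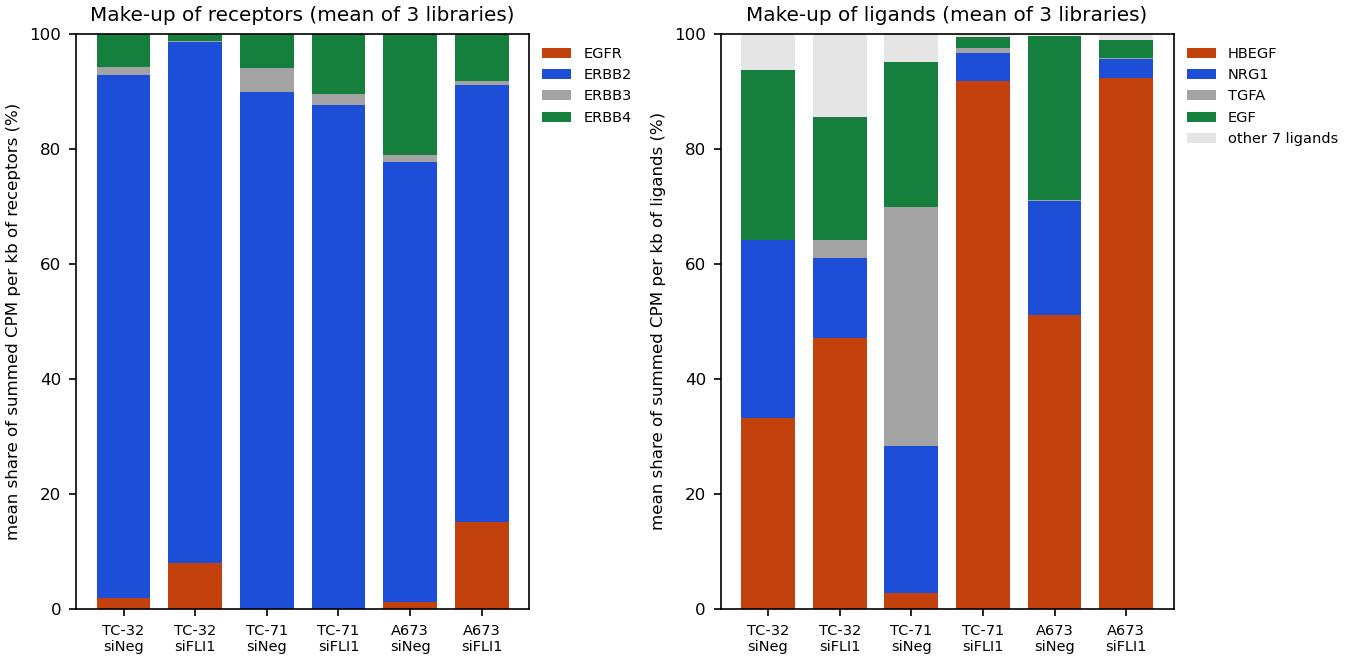
Mean share (%) of each gene in the summed CPM per kb of the 4 receptors (left) and of the 11 ligands (right), 1 bar per group of 3 libraries. ERBB2 is the largest receptor share in all 6 bars, and the HBEGF share grows in TC-71 from 2.72% to 91.7% and in A673 from 51% to 92.4%.

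The other 32 genes of the pathway were taken from lists of ligands, receptor, ligand release, adaptors, and turnover and inhibition. Of 28 tested in TC-32, 18 were higher and 5 lower. Of 29 in TC-71, 22 were higher and 3 lower, and of 30 in A673, 21 were higher and 6 lower. The higher genes of A673 include EPGN, BTC and NRG2, which passed the low-count filter only through siFLI1. Among all genes tested, 41.3% were higher and 40.1% lower in TC-32, 36.8% and 35.0% in TC-71, and 36.0% and 35.0% in A673. These 32 genes, where tested, had a median log2 fold change of 0.44, 0.64 and 0.49 in the same order of lines, against 0.022, 0.018 and -0.00056 over all genes tested. Of the 7 ligand release genes, nearly every one was called higher, with 7 higher in TC-32, 7 higher in A673, and 6 higher and 1 lower in TC-71. ADAM17, the main protease that releases EGFR ligands, rose modestly everywhere, by log2 changes of 0.49 (TC-32), 0.64 (TC-71) and 0.63 (A673). FURIN, which matures such proteases, had 0.71, 1.39 and 0.54 in these lines, and FRMD8, which stabilises the ADAM17 complex, had 1.35, 0.83 and 0.60. RHBDF2, an ADAM17 partner, was the exception, at -0.25 in TC-71 against 0.34 in TC-32 and 0.44 in A673. TIMP3, which inhibits ADAM17 and so acts against release, rose as well. In TC-32 it went from 5.34 to 370 CPM; its log2 change was 6.12 (edgeR adjusted p = 1.78e-28), against 0.32 in TC-71 and 1.29 in A673.

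Among the remaining ligands, EGF did not pass the threshold in any line, at -0.033 in A673, -0.029 in TC-32 and -0.14 in TC-71 (lowest edgeR adjusted p = 0.0885). It was called lower in TC-71 without siFLI1 replicate 3 (-0.23, edgeR adjusted p = 0.0095) and in A673 with library size as the only scaling (-0.14, 0.0135). NRG2, an ERBB3 and ERBB4 ligand, was higher in TC-32 (0.98) and A673 (1.30) and did not pass the threshold in TC-71 (-0.49). Its A673 call was lost without siNeg replicate 2 (0.98, edgeR adjusted p = 0.0621). In A673, NRG2 passed the low-count filter only through siFLI1, so its value there is a description. NRG4 had 0 counts in TC-32 siNeg and 6, 12 and 11 in siFLI1, at least 2.63-fold higher against a floor of 3 counts per library, but shares 38.2% of its exon bases with FBXO22 on the opposite strand. NRG3 had at most 2 counts in any library. ERBB4, the receptor of the neuregulins and HBEGF, was lower in TC-32 (-1.13) and A673 (-0.62) and higher in TC-71 (1.27), and the TC-71 effect differed from both others, by -2.41 for TC-32 and -1.93 for A673 (edgeR adjusted p = 1.61e-17 and 3.25e-17). In TC-71, the line with the least EGFR RNA, it went from 10.8 to 26.1 CPM.

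Of the 8 adaptors that carry the signal from the receptors, 5 were higher and 2 lower in TC-32, 7 higher and 1 lower in TC-71, and 5 higher and 3 lower in A673. Among all genes tested, 41.3% were higher and 40.1% lower in TC-32, 36.8% and 35.0% in TC-71, and 36.0% and 35.0% in A673. A list of 8 genes is too small to set apart from these shares. EPS8, an EGFR substrate, was higher in each line (0.85, 1.86 and 1.38). GAB2, a docking protein, was higher by 3.97 in TC-71, against 1.36 in TC-32 and 0.45 in A673. PTPN11, the phosphatase SHP2, was lower in each line (-1.07, -0.70 and -0.27). Of the 10 turnover and inhibition genes, 5 were higher and 2 lower in TC-32, 8 and 1 in TC-71, and 6 and 2 in A673. The 5 of 10 in TC-32 lie near the 41.3% of all genes called higher there. LRIG3, a member of the LRIG family of receptor regulators, was higher in each line (1.86, 1.74 and 0.67). CBLB and CBL, ubiquitin ligases that send EGFR to degradation, moved apart. CBLB was higher in each line (0.27, 1.85 and 0.28) and CBL lower (-0.58, -0.56 and -0.10), where the A673 call of CBL (edgeR adjusted p = 0.0252) was lost without siFLI1 replicate 3 or siNeg replicate 2 or 3 and with the replicate number as a block (adjusted p = 0.0956). LRIG1, a negative regulator of the receptors, was higher in TC-32 (0.71) and TC-71 (1.05) and not past the threshold in A673 (-0.055). With library size as the only scaling its A673 value was -0.16 and called lower (edgeR adjusted p = 0.00115). It shares 37.9% of its exon bases with SLC25A26.

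**Figure D4:**
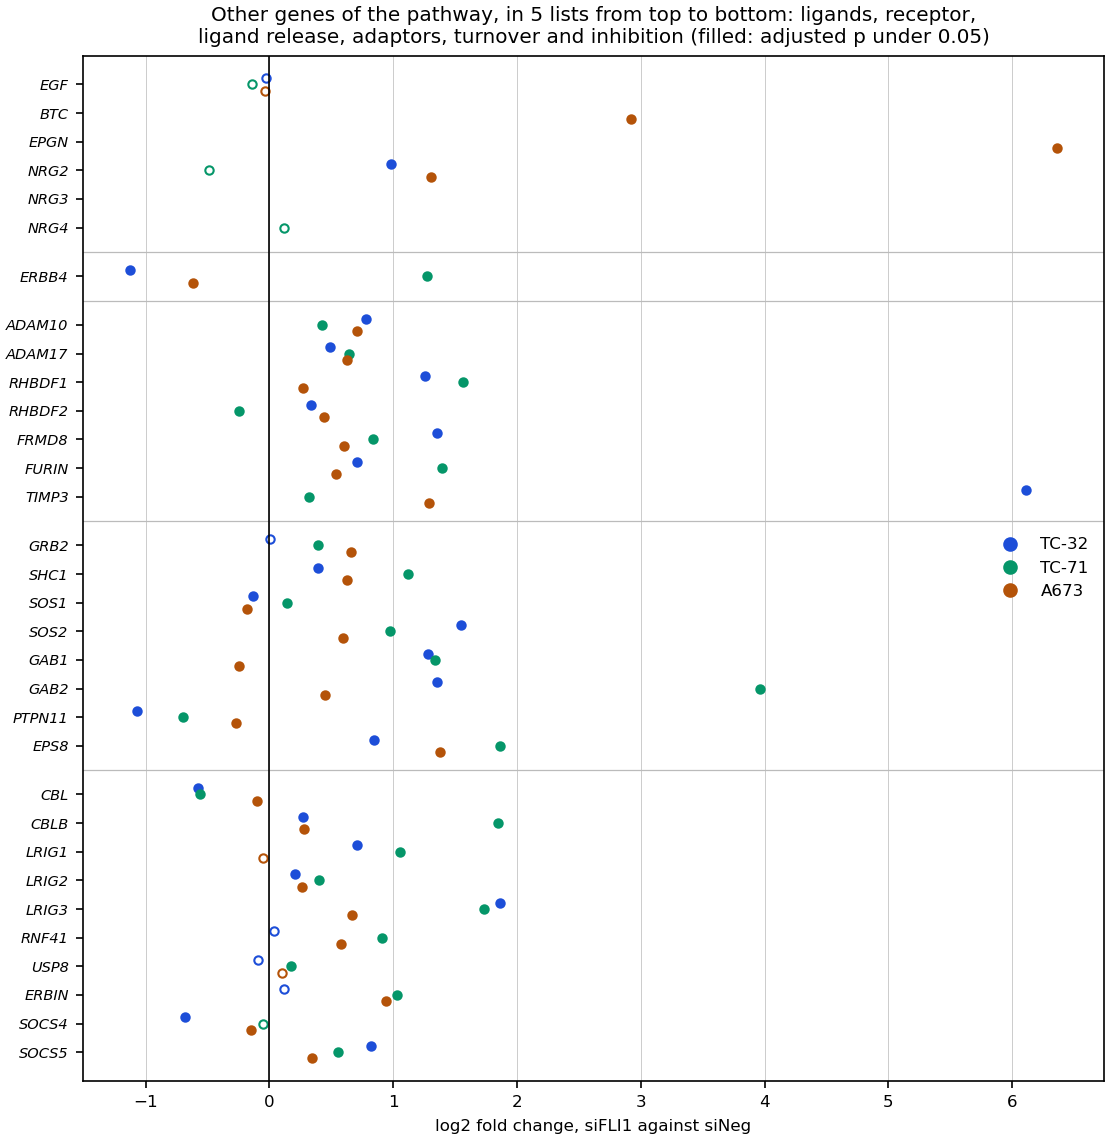
Log2 fold change of siFLI1 against siNeg for the 32 other pathway genes in the 3 lines. Filled points passed an adjusted p under 0.05, and lines separate the 5 lists. The ligand release genes lie to the right of 0 except RHBDF2 in TC-71, and ERBB4 lies on both sides.

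The 5 members tested in all lines were compared over the 18 libraries after each line was centred on its own mean, so that the points share a line and a siRNA and describe only likeness. HBEGF and ERRFI1 had a Pearson r of 0.933, HBEGF and NRG1 0.811, and ERBB2 and ERBB3 -0.73. Among 10873 other genes, those most like HBEGF were DUSP5 (r = 0.9966), a nuclear ERK phosphatase, and CTDSPL (0.9962). The DUSP5 log2 fold change was 3.15 in TC-71, 1.6 in A673 and 0.38 in TC-32, the same order of lines as HBEGF on a smaller scale. Most like ERRFI1 were S100A10 (0.9997) and F2RL1 (0.9983), a protease-activated receptor gene with log2 fold changes of 2.10, 5.58 and 5.58. ERBB2 was followed most closely by ITGA5 (0.998) and GAA (0.9951), and NRG1 by ABLIM1 (0.9887) and EML4 (0.9847). ERBB3, with the lowest counts of the 5, had no partner as close, PDAP1 (0.9401) and TOMM34 (0.9397) being the nearest. At least 205 genes for HBEGF, 31 for NRG1, 320 for ERBB2 and 303 for ERRFI1 had an r above this 0.9401. The 2 genes named for each of these members therefore head longer lists and are not distinctive partners.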

How the data were processed

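RNA of 18 libraries in 6 groups of 3 was sequenced. The authors deposited expected counts from RSEM (so the table names say) of TC-32 and A673 cells, and counts from Subread of TC-71 cells. Neither is scaled to depth. The submitters' processing notes list cutadapt 4.4, STAR 2.7.3, Subread 2.0.3, featureCounts, limma 3.38.3 and GRCh38 (hg38), with no role or order. The annotation release, strand setting and RSEM version are not given in the sources used here. The names of the TC-32 and TC-71 library columns hold the siRNA and replicate but not the line, which rests on the table name. All 58381 rows were read, and 45 pseudoautosomal second copies were summed with the first.

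Expected counts were rounded. In R 4.3.3, edgeR 4.0.16 was run per line (filterByExpr, TMM, robust quasi-likelihood F-test, prior count 0.125), and differences between lines with contrasts in a model of all 18 libraries. Benjamini-Hochberg adjustment ran over all genes tested, and every adjusted p is from edgeR unless another tool is named. SE come from the unshrunken fit, and TMM factors scale the CPM (SD over 3 replicates). Ratios of counts too low for the fit carry exact binomial intervals (95%), and a count of 0 allows up to 3 counts. Intervals and floors cover counting error only. Precision follows depth, 19685354 to 120993595 counts a library. Over 18 replicate pairs Pearson r was at least 0.9953 and chi-square per degree of freedom at least 2.444, so no pair agreed within sampling noise.

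GENCODE release 44 (GRCh38) gave positions, lengths and overlaps of exons, and RefSeq gave promoters (GRCh38.p14), where 7 of the 9 genes have an entry, with 9 start sites. Motifs were searched on both strands. Genes named outside the members and lists are the 2 closest in pattern to each member. The members, the lists, the tests and the alternatives were chosen with earlier results of these data known. The scripts were tested on simulated data. The blood cell marker list is not reported here. Alternatives changed the scaling (RLE, library size alone), the filter (none, or mean counts of 10 and more), the tool (limma-voom of limma 3.58.1, DESeq2 1.42.0) or the rounding, added a replicate block or a 2-fold threshold, left out each library, or fitted the 12 libraries of a pair of lines. The transcript length was chosen, and the length of all exons kept as the alternative, after seeing the data.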

Additional observations from a re-analysis of the deposited data

Results flagged for a closer look

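Interaction contrasts of edgeR with Benjamini-Hochberg adjustment found a different siFLI1 effect in the lines of each pair for these members, given as the first line minus the second on the log2 scale. Between TC-32 and A673 the differences were -3.00 for HBEGF, -2.72 for ERRFI1, -2.42 for ERBB3, -1.36 for EGFR, -1.22 for NRG1, 0.36 for ERBB2 and 6.07 for TGFA. Between TC-32 and TC-71 they were -7.66 for HBEGF, -2.80 for ERRFI1, -1.90 for NRG1, -1.71 for ERBB3, 0.66 for ERBB2 and 7.35 for TGFA. Between A673 and TC-71 they were -4.67 for HBEGF, -0.68 for NRG1, 0.29 for ERBB2 and 1.28 for TGFA. The TGFA values with TC-32 rest on a siNeg group with 1 count in all, and without siNeg replicate 2, which holds it, they were 8.99 against A673 and 10.26 against TC-71, so their sizes depend on the prior count. Across all tested genes 62.1%, 53.6% and 51.7% differed in the same order of pairs.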

How the results depend on the processing

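Called members numbered 8 in A673 and 6 in each of the other lines, and these numbers stayed within 1.5 times of this in the alternatives run, except that 5 were called in A673 with at least a 2-fold change added. Members differing between A673 and TC-71 numbered 4, and 7 with limma-voom. The sign turned only for values close to 0 that were not called: with library size alone EGF in TC-32 (0.014), ERBB3 in A673 (-0.040) and USP8 in A673 (-0.0082), and with no filter GRB2 in TC-32 (-0.019). Leaving out single libraries gave -0.23 to 0.30 for ERBB3 in A673, -0.026 to 0.0061 for GRB2 in TC-32, -0.029 to 0.31 for NRG4 in TC-71, -0.00092 to 0.057 for RNF41 in TC-32 and -0.098 to 0.021 for SOCS4 in TC-71. The cause was not tested. Whether the replicate numbers pair the samples is not stated. Same-numbered siNeg and siFLI1 libraries correlated between -0.206 and 0.0531 in their deviations, and a library matched its own number best in 2 of 9 cases. No pairing was seen in these values, which cannot show how the libraries were set up. With the replicate number as a block, 6, 6 and 8 members were called, and CBL in A673 (-0.10) was the only single-gene call lost. The fit without the filter took in every gene with a count, so also AREG, EREG and TGFA in TC-32 and AREG and EGFR in TC-71. Those values are not reported here. AREG, EREG and TGFA in TC-32, and AREG, EREG and EGFR in TC-71, were too low for the main fit, so depth limits what can be said of them.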
